A study of Mus musculus with 6 samples.

Results

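The 10 genes described here encode the 3 SOX transcription factors of the chondrocyte lineage (Sox9, Sox5 and Sox6) and 7 proteins made in cartilage or at joint surfaces (Acan, Hapln1, Cilp, Cilp2, Prg4, Matn3 and Snorc). They were chosen by gene symbol, and all 10 were found among the 17457 genes of the expression table. RNA sequencing had been carried out on 4 libraries of cultured MSCs and 2 of primary MSCs, to ask how mesenchymal stem cells (MSCs) of mouse long bones change during a single passage in culture. All libraries came from wild type, female C57BL/6J mice that were 10 weeks old. For cultured MSCs, the mixed cells of collagenase IV-digested long bones were grown for 10 days in MesenCult medium and sorted afterwards, while primary MSCs were sorted straight from the digest. Both were gated as CD45-Ter119-CD31-Sca-1+PDGFRα+ cells. Each library pooled cells of more than 1 mouse. Because the culture was started from unsorted cells, the sorted groups need not descend from the same cells.

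SOX9 is the master regulator of chondrocyte fate and binds DNA through an HMG box, a domain that recognises short sites with the core ACAAT. SOX5 and SOX6 carry no activation domain of their own and help SOX9 to occupy and activate the enhancers of cartilage genes. The best known targets are structural: the proteoglycan aggrecan (Acan) is held on hyaluronan by link protein (Hapln1) and gives cartilage its resistance to compression, whereas lubricin (Prg4) coats the joint surface.

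The upstream sequences of Cilp and Cilp2, the paralogues with the largest differences between the groups, are shown because the SOX core can be searched in them. Each is the 250 bases before the transcription start in RefSeq (GRCm38.p6), written 5′ to 3′ on the strand of the gene, with any ACAAT in capitals.
Cilp, chr9:65264930-65265179, plus strand: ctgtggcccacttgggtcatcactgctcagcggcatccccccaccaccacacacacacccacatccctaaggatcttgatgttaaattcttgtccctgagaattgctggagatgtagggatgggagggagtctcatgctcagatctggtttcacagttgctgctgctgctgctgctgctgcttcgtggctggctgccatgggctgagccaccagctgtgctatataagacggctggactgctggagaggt
Cilp2, chr8:69887393-69887642, minus strand: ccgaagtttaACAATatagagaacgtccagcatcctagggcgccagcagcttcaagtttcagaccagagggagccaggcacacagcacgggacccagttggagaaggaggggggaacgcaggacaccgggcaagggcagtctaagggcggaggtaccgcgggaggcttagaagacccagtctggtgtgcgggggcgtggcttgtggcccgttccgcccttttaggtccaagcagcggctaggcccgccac
The Cilp window held no ACAAT on either strand. The Cilp2 window held 1, whose first base lay 240 bases before the start. Searched on both strands, ACAAT occurred in 27.7% of all 32851 mouse promoters of this length. It occurred in 6 of the 12 promoters that RefSeq gave for 7 of the 10 genes. Sox6 alone gave 6 of the 12 promoters, so they are not separate genes. The core was in promoters of Sox6, Sox5, Cilp2 and Hapln1, and in none of those of Acan, Cilp and Matn3. The Sox5 promoter and all Sox6 promoters lay inside their genes, and the Hapln1 window ran past the annotated start of the gene. The longer AACAATG, which contains the core, occurred in 3.29% of all promoters and in 1 of the 12, an internal Sox6 promoter. That same Sox6 promoter was the single one of the 12 with an inverted pair of cores, ACAAT followed by ATTGT after 5 bases, which 0.0304% of all promoters held. The same pair after 3 bases (0.0365% of all promoters) or 4 bases (0.0274%) was in none of the 12, and neither was GAACAATGG (0.207%). GC content was 56.0% in the Cilp window and 62.4% in the Cilp2 window, against a median of 52.4% over all promoters.

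Levels are given as FPKM, fragments scaled to transcript length and to the mapped fragments of the library, as computed by the authors. The values summed to between 612104 and 642497 in cultured libraries and to 571471 and 559601 in primary libraries, and the reads behind a single value are unknown. The test was that of limma on log2(FPKM + 0.1), in which added 0.1 makes fold changes of genes near 0 too small. It covered 11405 genes, each of which reached 1 FPKM in 2 or more libraries. A gene is said to be higher or lower if the limma p, adjusted by Benjamini-Hochberg, was under 0.05. All genes together had a median log2 fold change of 0.45, so the median gene was itself above 0 in cultured MSCs, and a rescaling by median ratios brought it to 0.01. RNA from Sca-1 (Ly6a), a surface marker of the sort, was at 1117 to 1190 FPKM in cultured libraries. It was at 1056 and 1711 FPKM in primary libraries. Ly6a did not pass the test with the deposited scaling, and was lower with median ratio scaling (-0.65, limma adjusted p = 0.0136). Pdgfra RNA was lower in cultured MSCs, at 35.5 to 43.1 FPKM against 66.8 and 72.7 FPKM in primary MSCs, and neither CD45 (Ptprc) nor CD31 (Pecam1), which were sorted against, reached 1 FPKM in any library.

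Of the 10 genes, 2 were higher in cultured MSCs (Hapln1 and Sox6), 5 were lower (Cilp, Cilp2, Snorc, Prg4 and Acan), and 3 did not pass the test (Sox9, Sox5 and Matn3). Over all genes tested, 48.1% were higher and 17.6% lower. The shares among the 10 genes were thus below that background for higher genes and above it for lower ones. After median ratio scaling, 1 of the 10 was higher (Hapln1) and 6 were lower (the same 5 and Sox5), where 29.2% of all genes were higher and 29.3% lower. Cultured and primary values did not overlap for 2 genes on the higher and 5 on the lower side, beside 52.3% and 20.4% of all genes. All 10 passed the filter on low values, Snorc through its primary libraries alone, so the direction of Snorc was set by the filter. Fewer cells of a type and less RNA per cell cannot be told apart in these bulk samples.

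**Figure D1:**
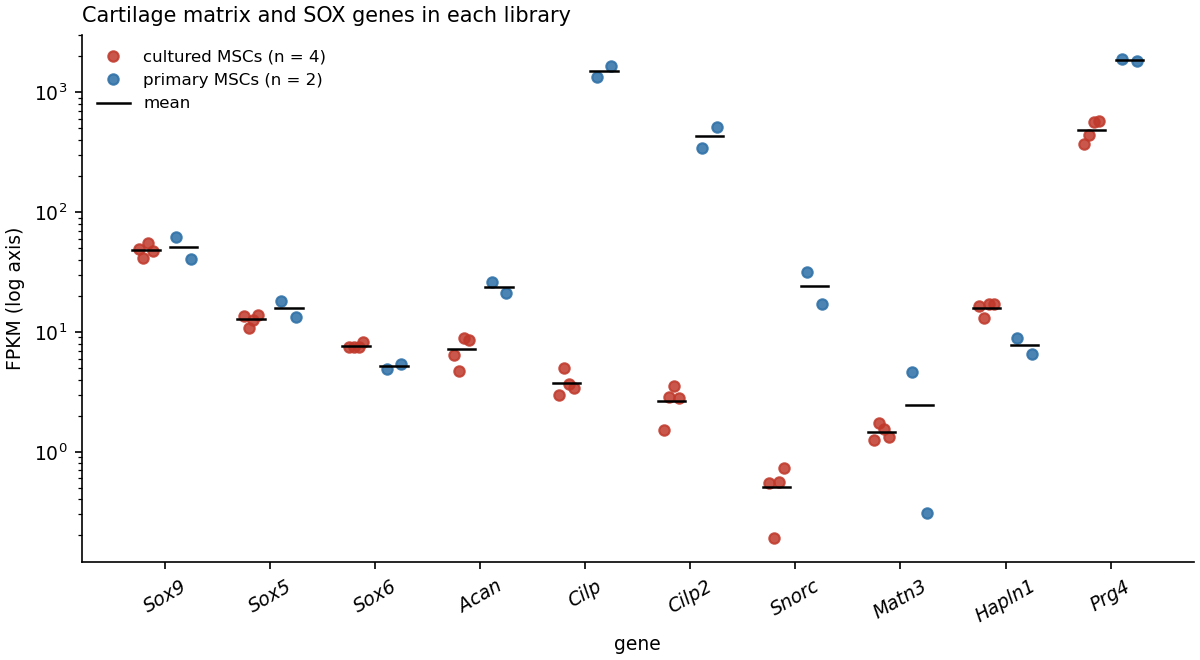
Level of each of the 10 genes in each library, in FPKM on a log axis, with the 4 cultured MSC libraries (red) left of the 2 primary MSC libraries (blue) and a line at each mean. Cilp and Cilp2 lay at 1.53 to 5 FPKM in every cultured library and above 345 FPKM in both primary libraries, while the 2 groups overlapped for Sox9, Sox5 and Matn3.

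Sox9 lies at chr11:112782210-112787757. It had 49.6, 41.3, 55.4 and 47.8 FPKM in cultured MSCs, against 61.8 and 40.7 FPKM in primary MSCs. The groups overlapped, and the primary libraries differed from each other by more than the cultured ones did. The log2 fold change was -0.06 with a standard error (SE) of 0.18 and a limma adjusted p of 0.802, and it was -0.49 after median ratio scaling (adjusted p = 0.0521).

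Sox5, which encodes a partner of SOX9, lies at chr6:143828425-144782287. Its levels were 13.7, 10.9, 12.6 and 13.99 FPKM in cultured MSCs, against 18.2 and 13.5 FPKM in primary MSCs. The first primary library was above every cultured one and the second lay among them. The log2 fold change of -0.30 (SE 0.17) missed the threshold with the deposited scaling (limma adjusted p = 0.152) and passed it with median ratio scaling, at -0.73 (adjusted p = 0.00660). With single libraries left out, the change ranged between -0.51 and -0.08.

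Sox6, the close relative of Sox5 at chr7:115470872-116040776, had 7.47, 7.43, 7.47 and 8.31 FPKM in cultured MSCs, against 4.91 and 5.45 FPKM in primary MSCs. All cultured values were above both primary values. It was higher by a log2 fold change of 0.56 (SE 0.14, limma adjusted p = 0.00873), which is 0.11 above the median gene. The call was lost with median ratio scaling, at 0.13 (adjusted p = 0.442). No 31-base stretch was shared between transcripts of Sox5, Sox6 and Sox9, read on the transcribed strand. Opposite strands were not compared, and the transcript set was not the one behind the FPKM.

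Ratios between genes within a library, taken on FPKM + 0.1, hardly depend on how libraries are scaled. In both groups the 3 SOX genes stood in the same order, with Sox9 highest and Sox6 lowest. Sox5 exceeded Sox6 by 1.82, 1.45, 1.68 and 1.68 times in cultured MSCs, against 3.65 and 2.44 times in primary MSCs, a difference of -0.86 on the log2 scale. The groups did not overlap, and the exact permutation test over libraries gave p = 0.0667, the smallest that 4 against 2 libraries allow, or 0.1 after adjustment over the 6 ratios tested. The ratio of Sox6 to Sox9 was 0.152, 0.182, 0.137 and 0.176 in cultured MSCs, against 0.0810 and 0.136 in primary MSCs. The third cultured library and the second primary library were nearly equal in it, and the log2 difference of 0.61 (exact permutation p = 0.0667, adjusted 0.1) was 0.24 without the first primary library and 0.99 without the second. Sox5 over Sox9 was 0.277, 0.265, 0.229 and 0.294 in cultured MSCs, against 0.296 and 0.333 in primary MSCs. The groups did not overlap, although the fourth cultured and the first primary library were close, and the log2 difference was -0.24 (exact permutation p = 0.133, adjusted 0.16).

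Acan, at chr7:79053226-79115099, encodes the core protein of aggrecan. Its levels were 6.42, 4.73, 8.98 and 8.56 FPKM in cultured MSCs, against 26.0 and 21.1 FPKM in primary MSCs. Every cultured library was under both primary libraries, and the cultured libraries spanned 1.90-fold among themselves. Acan was lower by a log2 fold change of -1.74 (SE 0.26, limma adjusted p = 0.000597).

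Hapln1, at chr13:89540529-89611832, encodes the link protein that fastens aggrecan to hyaluronan. It had 16.4, 13.1, 17.2 and 17.0 FPKM in cultured MSCs, against 8.94 and 6.52 FPKM in primary MSCs. The groups did not overlap, and Hapln1 was higher by a log2 fold change of 1.04 (SE 0.18, limma adjusted p = 0.00114). With median ratio scaling the change was 0.61 (adjusted p = 0.0184).

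The aggregate partners thus moved in opposite directions. Hapln1 RNA exceeded Acan RNA by 2.53, 2.73, 1.90 and 1.98 times in cultured MSCs, against 0.346 and 0.312 times in primary MSCs. Hapln1 was thus above Acan in all 4 cultured libraries and below it in both primary libraries. The log2 difference in this ratio was 2.78 (exact permutation p = 0.0667, adjusted 0.1).

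Cilp, at chr9:65265180-65280614, encodes cartilage intermediate layer protein, a secreted matrix protein that binds and restrains TGF-β1. It had 2.97, 5, 3.70 and 3.38 FPKM in cultured MSCs, against 1357 and 1662 FPKM in primary MSCs. In primary MSCs it ranked 47th by level among the 11405 genes tested, and in cultured MSCs 8158th. The log2 fold change was -8.63 (SE 0.20, limma adjusted p = 1.25e-07), a level 396 times higher in primary MSCs on that scale, and 13 of the genes tested had a change further below 0.

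Cilp2, the paralogue of Cilp at chr8:69880366-69887392, showed the same pattern at a lower level. It had 1.53, 2.85, 3.51 and 2.79 FPKM in cultured MSCs, against 345 and 519 FPKM in primary MSCs. Both primary libraries were far above all cultured ones, and the log2 fold change was -7.31 (SE 0.31, limma adjusted p = 9.91e-07), 159 times higher in primary MSCs. It ranked 28th among the genes tested when ordered from the lowest fold change. Transcripts of Cilp and Cilp2, read on the transcribed strand, shared no 31-base stretch.

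Cilp exceeded Cilp2 in every library, by 1.88, 1.73, 1.05 and 1.204 times in cultured MSCs, against 3.93 and 3.20 times in primary MSCs. The log2 difference in this ratio was -1.32, without overlap of the groups (exact permutation p = 0.0667, adjusted 0.1).

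Prg4, at chr1:150449412-150466221, encodes lubricin, the boundary lubricant secreted by superficial chondrocytes and synovial cells. It was the most abundant of the 10 genes in every library, with 372, 444, 565 and 576 FPKM in cultured MSCs, against 1912 and 1825 FPKM in primary MSCs. It fell without overlap, by a log2 fold change of -1.96 (SE 0.18, limma adjusted p = 4.30e-05), and still ranked 210th by level in cultured MSCs, against 38th in primary MSCs. The gene overlaps Tpr in the annotation, and the kit keeps no strand, so reads from the overlap cannot be assigned with certainty. Tpr was higher in cultured MSCs, at 13.1 to 16.1 FPKM against 7.07 and 10.3 FPKM in primary MSCs, the direction opposite to that of Prg4. The ratio of Acan to Prg4 differed by 0.22 on the log2 scale, with overlapping groups (exact permutation p = 0.467, adjusted 0.467).

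Snorc, at chr1:87470201-87475482, encodes a small transmembrane proteoglycan of chondrocytes. It had 0.55, 0.19, 0.56 and 0.73 FPKM in cultured MSCs, against 31.6 and 17.1 FPKM in primary MSCs. No cultured library reached the 1 FPKM of the filter, so the filter set the direction of Snorc. The log2 fold change was -5.36 (SE 0.45, limma adjusted p = 2.55e-05), and the first primary library was 1.85 times above the second.

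Matn3, at chr12:8947929-8972028, encodes matrilin-3, an adaptor between collagen fibrils and proteoglycans of the growth plate. It had 1.26, 1.73, 1.55 and 1.33 FPKM in cultured MSCs, against 4.61 and 0.31 FPKM in primary MSCs. The primary libraries lay on either side of all cultured ones, 14.9-fold apart, and the log2 fold change was 0.16 (SE 0.80, limma adjusted p = 0.868). Its direction rested on which primary library was kept: the log2 fold change was 1.92 without the first and -1.60 without the second.

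**Figure D2:**
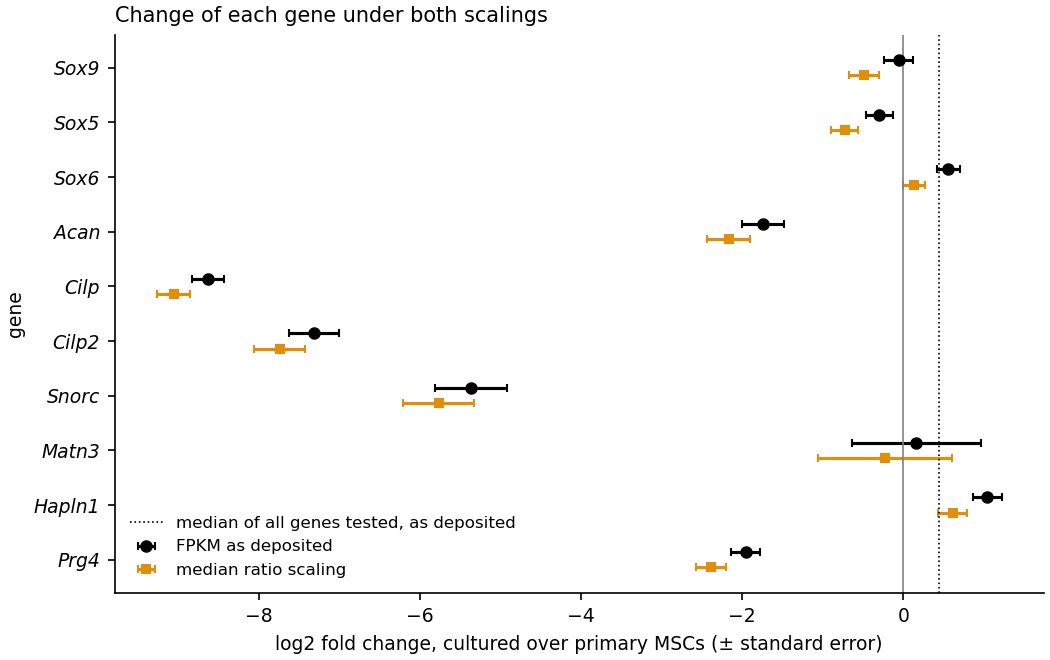
Log2 fold change of cultured over primary MSCs for each of the 10 genes, with bars of 1 standard error, for the FPKM as deposited (black circles) and after median ratio scaling (orange squares). The dotted line marks the median of all genes tested, 0.45. Acan, Cilp, Cilp2, Snorc and Prg4 lay below 0 and Hapln1 above 0 under both scalings.

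Summed over the 10 genes, the level was 472 to 680 FPKM in cultured MSCs, against 3770 and 4110 FPKM in primary MSCs, which is 0.0735% to 0.111% of all FPKM in cultured MSCs and 0.660% and 0.734% in primary MSCs. The make-up of that sum also differed. Prg4 held 78.9% to 84.7% of it in cultured libraries, against 50.7% and 44.4% in primary libraries, and Sox9 held 7.02% to 10.5% in cultured libraries, against 1.64% and 0.989% in primary libraries. Cilp made up 0.497% to 0.941% in cultured MSCs, against 36.0% and 40.4% in primary MSCs. Cilp2 made up 0.324% to 0.536% in cultured MSCs, against 9.16% and 12.6% in primary MSCs.

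**Figure D3:**
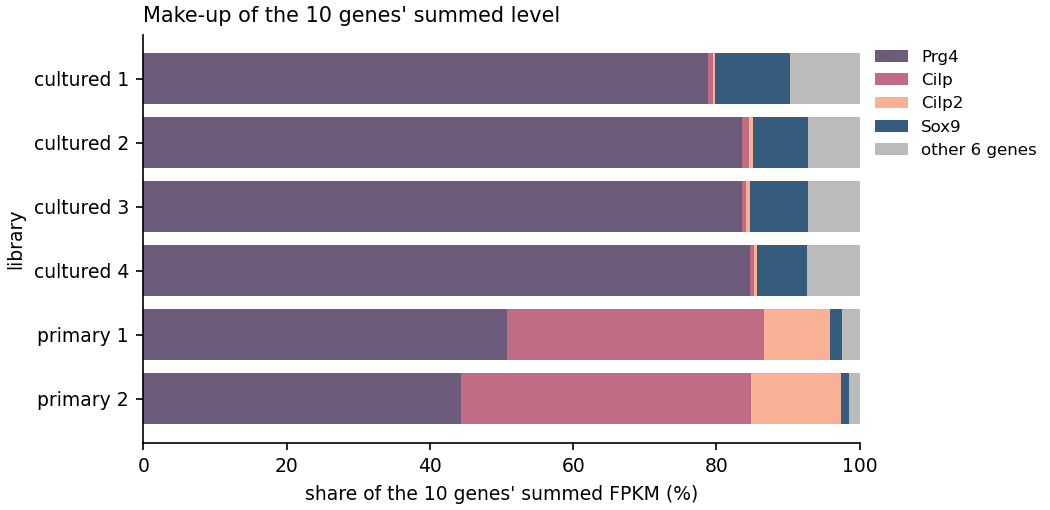
Share of the 10 genes' summed FPKM, in percent, held by Prg4, Cilp, Cilp2, Sox9 and the other 6 genes in each of the 4 cultured libraries (upper rows) and the 2 primary libraries (lower rows). Cilp and Cilp2 are thin slivers in cultured MSCs, where Prg4 held 78.9% to 84.7%, and took a large part of the sum in primary MSCs.

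The primary libraries differed in chondrocyte marker RNA. All 8 chondrocyte markers examined were higher in the first than in the second, by a median log2 ratio of 1.63, and so were all 8 osteoblast markers. The summed chondrocyte markers were at 338 to 739 FPKM in cultured MSCs, of which Col2a1 made up 331 to 723 FPKM, against 236 and 54.5 FPKM in primary MSCs. Of the 6 markers tested, Col2a1 was higher in cultured MSCs and 3 were lower, namely Col9a1 (-2.55), Col11a2 (-2.80) and Ucma (-1.61), of which Col9a1 and Col11a2 passed the filter through the primary libraries alone. Beside these counts, 48.1% of all genes tested were higher and 17.6% lower. Matn1 was listed at 0 in every cultured library and in the second primary library. Of the 10 genes, 7 were higher in the first primary library and 3 in the second. Matn3 went with the chondrocyte markers, at a log2 ratio of 3.52, outside the interval of -1 to 1.07 that held the central 90% of all genes tested. Snorc (0.88), Sox9 (0.60), Hapln1 (0.45), Sox5 (0.43), Acan (0.30) and Prg4 (0.07) stayed inside it. Sox6 (-0.15), Cilp (-0.29) and Cilp2 (-0.59), also inside, were lower in the first library, where the chondrocyte markers were higher. The 6 genes called under both scalings were Acan, Cilp, Cilp2, Snorc, Prg4 and Hapln1. With the same genes tested, they kept direction when either primary library was left out. The filter had set the direction of Snorc.

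**Figure D4:**
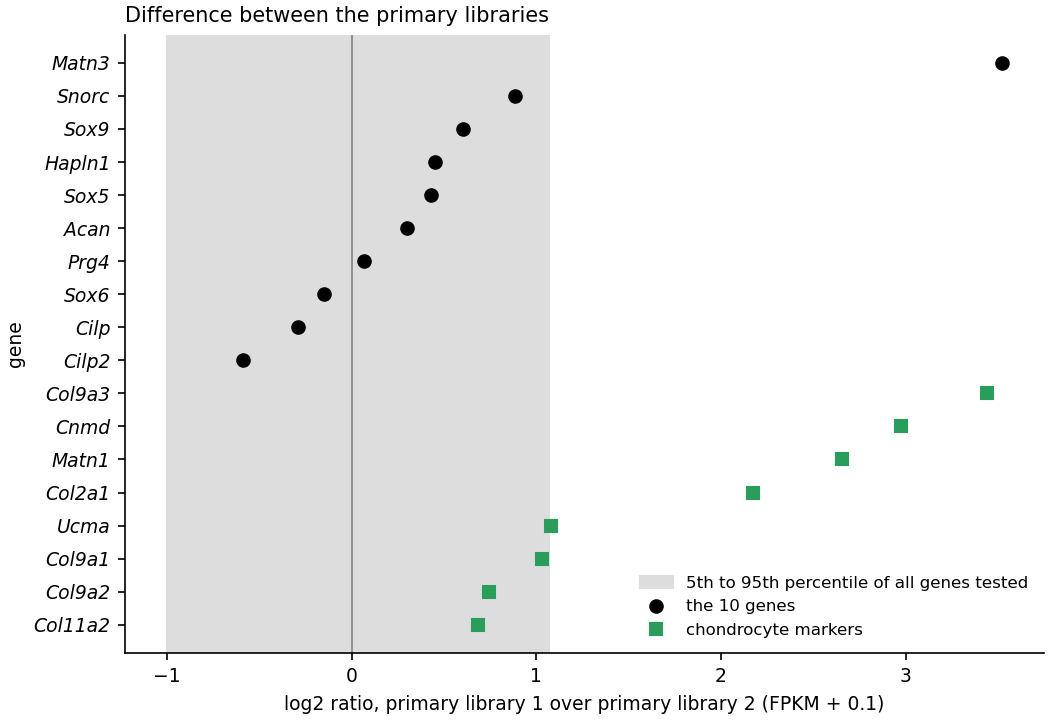
Log2 ratio of the first over the second primary library, for the 10 genes (black circles) and 8 chondrocyte markers (green squares), with the central 90% of all genes tested shaded. Matn3 lay at 3.52 among the upper chondrocyte markers, while the other 9 genes lay within the shaded range.

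Markers of other cell types also differed between the groups, and their part in these results was not tested. Counts of markers called stand beside the 48.1% higher and 17.6% lower of all genes tested. Of 11 macrophage markers, 10 were higher in cultured MSCs, where they summed to 104 to 329 FPKM, against 34.2 and 33.1 FPKM in primary MSCs, with Mrc1 listed at 0 in both primary libraries. Of these 10, 7 passed the filter through cultured libraries alone, and the erythroid and endothelial markers tested passed it through primary libraries alone, so their direction was set by the filter. Osteoblast markers summed to 42.0 to 49.3 FPKM in cultured MSCs, against 1413 and 644 FPKM in primary MSCs, and 5 of the 6 tested were lower. Tendon markers summed to 1166 to 1388 FPKM in cultured MSCs, against 3904 and 5239 FPKM in primary MSCs, with 3 of 5 lower (Tnmd, Thbs4 and Fmod) and Scx higher (log2 fold change 1.15). Erythroid markers summed to 0.20 to 0.61 FPKM in cultured MSCs, against 239 and 150 FPKM in primary MSCs, with Hbb-bt listed at 0 in all cultured libraries. Endothelial markers summed to 0.11 to 0.44 FPKM in cultured MSCs, against 3.14 and 4.37 FPKM in primary MSCs, with Emcn and Vwf listed at 0 in both primary libraries. Adipocyte markers summed to 12.3 to 14.7 FPKM in cultured MSCs, against 11.7 and 3.4 FPKM in primary MSCs, with Plin1 and Cidec at 0 in all cultured libraries, and 1 of the 2 tested was higher and 1 lower. Skeletal muscle markers summed to 3.66 to 6.81 FPKM in cultured MSCs, against 10.5 and 4.07 FPKM in primary MSCs, and again 1 of the 2 tested was higher and 1 lower.

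Other genes of cartilage biology were read from the same fit. These lists, like the marker lists, were chosen with earlier results of these data known, so their counts are descriptions. Their counts are read beside the 17.6% lower and 48.1% higher of all genes, and they include genes that passed the filter through the group in which they were high, whose direction the filter set. Among 26 other cartilage matrix genes tested, 16 were lower and 6 higher in cultured MSCs, with a median log2 fold change of -1.60, and 3 of the lower and 1 of the higher genes passed in that way. The largest log2 fold changes were those of the leucine-rich repeat protein gene Chad (-11.74), Cytl1 (-8.74) and Clec3a (-8.27), and Comp, the most abundant of the list, was at -2.77. Col2a1, which encodes the main cartilage collagen and is a direct SOX9 target, went the other way at 2.62, with 449, 331, 723 and 568 FPKM in cultured MSCs against 171 and 38.0 FPKM in primary MSCs. Genes of the joint surface, the tissue in which Prg4 is best known, were lower in 9 of 12 cases and higher in 1 (median -3.09). The largest changes were those of Col22a1 (-6.06) and Clic5 (-5.40), both of which passed the filter through primary libraries alone, and Clu (-4.29).

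The partners of Acan and Hapln1 were read in the same way. Of 12 genes for hyaluronan or other hyaluronan-binding proteoglycans, 6 were lower and 5 higher (median -0.40), a share of higher genes near that of all genes. The synthase gene Has1 was at -4.26 and the receptor gene Lyve1 at -4.27, whereas Hmmr, a hyaluronan receptor gene also known from the mitotic spindle, was at 5.29 and Cd44, the most abundant, at 0.58. Lyve1 and Hmmr each passed the filter through 1 group alone. Cd44 lost its call with median ratio scaling (0.15, limma adjusted p = 0.299). Of 8 genes for cleavage of aggrecan and matrix or its inhibition, 3 were lower and 2 higher (median -0.56), with the protease genes Adamts15 at -5.84 (through primary libraries alone) and Htra1 at -1.63 and the inhibitor gene Timp3 at 1.86. With median ratio scaling, 1 was higher and 5 lower, beside 29.2% and 29.3% of all genes. Quantile normalization gave the same counts. The lower count also changed when either primary library was left out, and changed less with the same genes tested.

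Regulators other than the SOX trio did not share a direction. Of 25 other transcription regulators of chondrocytes tested, 9 were higher and 8 lower (median 0.29, under the 0.45 of all genes). The largest changes were those of Nfatc2 (-5.13), Msx1 (-4.09) and Msx2 (2.98), and Bhlhe40, the most abundant, was at -1.61. Nfatc2 and Msx2 passed the filter through 1 group alone. The lower count fell without primary library 1, and fell less with the same genes tested. Median ratio scaling gave 4 higher and 9 lower. Of 17 other SOX family genes listed, 10 had a row in the table, and of these Sox8 and Sox4 passed the filter. Sox8, a relative of Sox9, had 0.02 to 0.15 FPKM in cultured MSCs, against 1.29 and 1.54 FPKM in primary MSCs (log2 fold change -3.01), and passed the filter through the primary libraries alone. It was not tested when the filter was a mean of 1 FPKM. Sox4 was higher at 0.82. That call was lost with median ratio scaling (0.40, limma adjusted p = 0.251), quantile normalization (0.55) and rescaling to equal FPKM sums (0.69). It was lost without the filter too (limma adjusted p = 0.0503). The same held without cultured library 1 (0.75) or 2 (0.78) and without primary library 2 (0.35). Of 11 genes of hypertrophic chondrocytes, 6 were lower and 1 higher (median -0.91), with Ibsp at -6.36, Bmp6 at -4.46 and Pth1r at -3.15, while Spp1, the most abundant, was at 1.03. Of the lower genes, Ibsp, Alpl and Sp7 also stand among the osteoblast markers. The 4 that did not pass the test included Col10a1 (-0.33, limma adjusted p = 0.725). Col10a1 was at 5.36 and 0.45 FPKM in primary MSCs. Bmp6 passed the filter through primary libraries alone, and the higher count rose without primary library 1, also with the same genes tested. The list lengths and medians are descriptions, and several genes stand in more than 1 list.

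**Figure D5:**
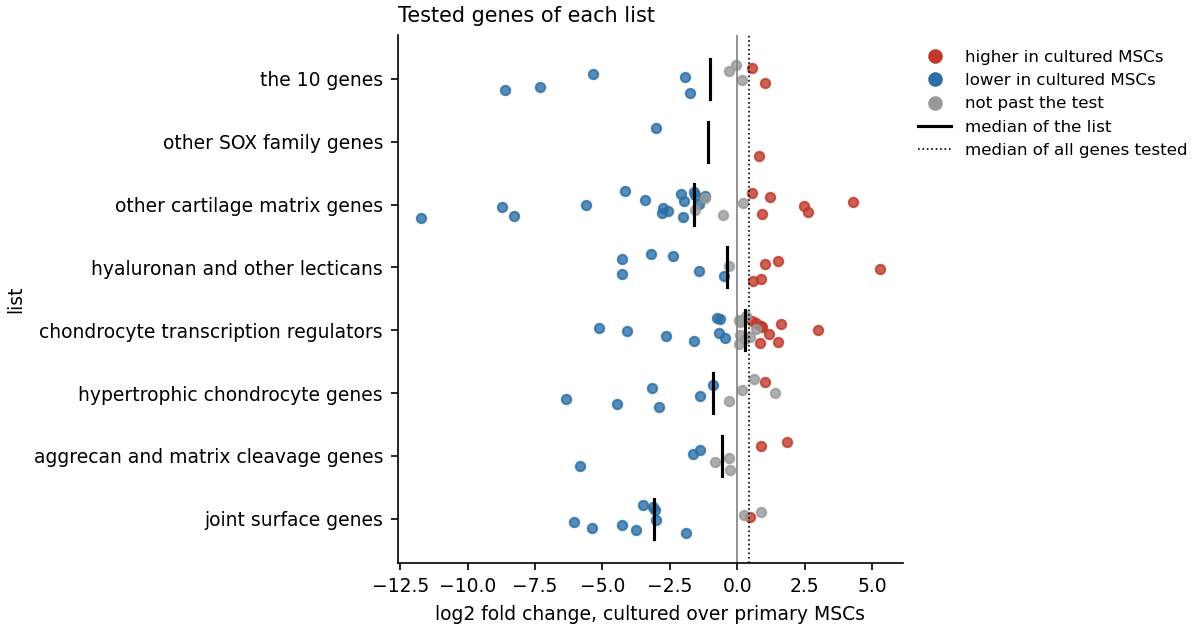
Log2 fold change of cultured over primary MSCs for every tested gene of each list, coloured by whether it was higher (red), lower (blue) or not past the test (grey), with the median of each list as a bar and the median of all genes, 0.45, as a dotted line. The medians run between -3.09 for joint surface genes and 0.29 for chondrocyte transcription regulators, and every list holds genes on both sides of 0.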

How the data were processed

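According to the authors, RNA was amplified with the SMART-Seq v4 kit, HISAT2 2.0.4 and Bowtie2 2.2.5 were used for alignment to GRCm38.p6 and its genes, and RSEM 1.2.8 for the estimates of expression. The deposited table holds FPKM values with 2 decimals for 17457 genes and 6 libraries. It also holds the authors' own log2 fold changes, which were not used. No read counts are given, so a count test could not be run and the depth behind a value is unknown.

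Genes that reached 1 FPKM in 2 or more libraries (11405) were tested by limma 3.58.1 in R 4.3.3 on log2(FPKM + 0.1), with group as the only term, moderated variances with a trend and 4 residual degrees of freedom. P values were adjusted by the Benjamini-Hochberg method over all genes tested. Another 6 values, ratios between genes, were compared with exact two-sided permutation tests over libraries, whose smallest p is 0.0667. On simulated data with 11405 genes, 50 were changed by each size. The test recovered 98% of genes changed by a log2 of -3 or 3. It recovered 54% and 52% of those changed by -1 and 1, with 7 false calls among the unchanged genes. The simulation drew normal noise and changed a far smaller share of genes than was called in the data. Its recovery therefore need not hold for the data. Of the deposited gene IDs, 17406 matched a RefSeq table of the same build, which gave positions and promoters.

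The members of each gene list were written from general knowledge and chosen with earlier results of these data known. Genes named are the 10 genes, from each other list the 3 largest changes called and the most abundant gene, the 2 most abundant of each marker list and the sort markers. Tpr, Tnmd, Scx, Col9a1, Col11a2, Ucma, Alpl, Sp7, Col10a1 and the markers listed at 0 were named after their values were seen. Some marker genes are not reported here by name. The study calls the libraries biological replicates, each from pooled mice, and p values measure the spread between these pools. According to the study, each primary pool held more mice than a cultured one, so the spread need not be alike in both groups. Alternatives covered the pseudocount, the filter, the scaling, the variance model, a replicate block and each library left out. Tables and figures used pandas 2.3.3, numpy 2.4.6 and matplotlib 3.10.9 under Python 3.11.15.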

Additional observations from a re-analysis of the deposited data

Results flagged for a closer look

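In 52 sets of 4 cultured libraries checked for a library that stands apart, 6 had one whose gap to its nearest neighbour passed Dixon's 95% critical share of the whole range. About 1 in 20 such sets is picked out by chance. Sox6 was the single one of the 10 genes among them, at 8.31 FPKM in cultured library 4, where the others lay between 7.43 and 7.47 FPKM. Hmmr was at 23.34 FPKM in cultured library 1, with the others at no more than 18.66 FPKM. Msx1 was at 1.48 FPKM in cultured library 3, with the others at no less than 2.04 FPKM. Msx2 was at 3.42 FPKM in cultured library 1, with the others at no more than 2.16 FPKM. Adamts15 was at 0.06 FPKM in cultured library 4, with the others at no more than 0.01 FPKM, and Hba-a2 at 0.18 FPKM in cultured library 3, with the others listed at 0. Values as low as those of Adamts15 and Hba-a2 are near the last decimal of the table.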

How the results depend on the processing

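Acan, Cilp, Cilp2, Hapln1 and Prg4 kept their direction and call under all 18 alternatives, and Snorc under the 16 that gave a value. The filter, which Snorc passed through primary libraries alone, had set the direction of Snorc. Leaving out a primary library also removed Snorc from the genes tested. Both fits were therefore repeated with the same genes, an alternative chosen after the data were seen. Over all genes, 5485 higher and 2008 lower became 3656 and 3039 with quantile normalization and 3338 and 3346 with median ratio scaling. The count of higher genes among the 10 was 1 instead of 2 under both scalings and with the replicate number as a block, each time through Sox6. The count of lower genes among them was 6 instead of 5 under both scalings, each time through Sox5. The same held for a rescaling of libraries to equal FPKM sums, which gave 4893 higher and 2512 lower over all genes. Over the other lists together, 25 higher genes became 15 with quantile normalization and 14 with median ratio scaling, while 48 lower genes became 35 without primary library 1, or 46 with the same genes tested. Matn3 was at -0.14 with a pseudocount of 1, at -0.25 with quantile normalization and at -0.22 with median ratio scaling, and ranged between -1.60 and 1.92 with single libraries left out. Sox9 ranged between -0.36 and 0.25 in the same way and was at 0.02 without cultured library 2 and 0.25 without primary library 1. Sox6 over Sox9 ranged between 0.24 and 0.99, and Sox5 over Sox6 between -1.14 and -0.57. Cnmd was at 0.96 without primary library 1 and at -2.01 without primary library 2, and Ly6a at -0.56 and 0.14. The cause of these shifts was not tested.

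The replicate block gave 4594 higher and 1597 lower genes and a log2 fold change of 0.52 for Sox6 (limma adjusted p = 0.125). The labels do not say that equal numbers mark a shared origin, only 2 numbers are shared, and deviations of same-numbered libraries correlated across genes at 0.121 and 0.0519. A fit left with 1 primary library takes the spread of that group from the cultured libraries.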

Other observations

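Within the cultured group, the libraries also differed in these genes. Of the 10, 6 (Sox9, Sox5, Sox6, Acan, Snorc and Hapln1) were lowest in cultured library 2, where 6 of the 8 chondrocyte markers were lowest too. Of the chondrocyte markers, 5 were highest in cultured library 3, with Col2a1 at 723 FPKM there and at 331 FPKM in cultured library 2. That library 3 also had the lowest level of 9 of the 11 macrophage markers, which summed to 104 FPKM, against up to 329 FPKM in the other cultured libraries. Cilp (5 FPKM) and Matn3 (1.73 FPKM) were highest in cultured library 2, unlike the 6 genes above. The highest cultured value exceeded the lowest by 1.12-fold for Sox6, 1.31-fold for Hapln1, 1.34-fold for Sox9, 2.29-fold for Cilp2 and 3.84-fold for Snorc. These are values of single libraries, with no test.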
